A study of Mus musculus with 4 samples.

Results

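The heat-shock proteins and co-chaperones described here are 10 mouse genes listed by symbol and matched to the arrays by the RefSeq accession of each probe. Of these 10 genes, 9 had a probe (12 probes in all, of 55597 kept), out of 20637 named genes on the array; no probe matched Hspa1b. Dendritic cells (DCs), the immune cells that sample and present antigen, had been taken fresh from the lamina propria of the colon by flow cytometry, with cells from 5 C57BL/6J mice per condition. The 4 conditions were CD300a-deficient (KO) mice kept germ-free (GF), wild-type (WT) GF mice, KO mice kept specific-pathogen-free (SPF), and WT SPF mice. CD300a is an inhibitory receptor of myeloid cells, and the study set KO against WT in each housing. The labels give no age and do not say whether the 5 mice were pooled or whether the deficiency is limited to DCs; the gates of the sort are likewise not given.

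Each condition is 1 array, so a difference between 2 arrays has no replicate check. Amplified, Cy3-labelled cDNA was hybridised to 1-colour Agilent arrays. The KO and WT arrays of one housing shared a slide, a scan year and an array design file. Housing cannot be told apart from slide, scan year, design file and labelled sex (GF male, SPF female). Between 60.1% and 65.6% of probe spots per array were well above background, and repeated spots of one probe had a median SD of 0.0916 to 0.101 on the log2 scale. A level below is log2 of the background-subtracted signal minus the 75th percentile of its array, so 0 is a fairly bright probe and a step of 1 is a doubling. Levels of different probes are not compared, since probes differ in brightness.

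The labels were checked first. The Cd300a probe read 8.05 in KO GF and 7.60 in WT GF cells, and 7.91 in KO SPF and 7.88 in WT SPF cells, so it was not lower where the label says KO. Where that probe lies relative to the deleted part is not given, and KO below means the arrays labelled so. Xist, transcribed from the inactive X of females, had a level of 3.62 in KO GF cells although their label says male. In WT GF cells, also labelled male, it was at -5.08 and its spot was not distinct from background. Ddx3y, which is Y-linked, was detected in both GF samples, at 0.59 for KO and 2.07 for WT. On the KO SPF array, labelled female, the Y-linked gene Eif2s3y was above background at -2.56. The GF arrays thus differ in Xist as well as in labelled genotype. KO minus WT in GF housing cannot be told apart from a difference in their sex makeup or sample identity. The SPF pair and the GF minus SPF difference in WT cells do not use the KO GF array. Of 12 DC markers with a probe, 11 were above background on both GF arrays and 12 on both SPF arrays; the missing one was Xcr1.

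Heat-shock proteins are chaperones that hold, fold and disaggregate other proteins. When unfolded protein builds up, heat-shock factor 1 (HSF1), encoded by Hsf1, is freed from chaperones, forms trimers and binds heat-shock elements, which are inverted repeats of the letters GAA, in front of chaperone genes. HSP70 proteins work with J-domain partners such as DNAJB1, which deliver clients and trigger ATP hydrolysis, and with nucleotide exchange factors such as HSPH1 and BAG3. HSPB1 is a small heat-shock protein that holds unfolded clients without ATP, HSP90AA1 is the inducible cytosolic HSP90, and HSPD1 with its lid HSPE1 forms the folding chamber of mitochondria. Heat-shock genes and immediate early genes are also both known to be induced while tissue is digested into single cells, and immediate early genes are therefore given beside them.

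Upstream sequence is shown for the 4 members with the lowest GF minus SPF difference in KO cells (Hspb1, Bag3, Hsph1 and Hspa1a, by the probe that represents each gene), whether or not it held a match, and for the stretch that Hspe1 and Hspd1 share, since heat-shock elements are the sites HSF1 reads. RefSeq windows of the 250 bases before the gene start (GRCm38.p6) were at hand for 8 of the 10 members, Hspa1b included. Windows were searched for GAANNTTC and TTCNNGAA, which are 2 inverted units and each its own reverse complement, on both strands. They were also searched for 3 such units in a row (GAA, TTC, GAA or TTC, GAA, TTC, each 2 free bases apart), which contain the shorter matches. Capitals mark these matches, and each sequence runs 5' to 3' on the strand of its gene. The 250-base windows end at the base before the start, and the Hspe1 stretch lies within its window.
Hspa1a, chr17:34972157-34972406, minus strand: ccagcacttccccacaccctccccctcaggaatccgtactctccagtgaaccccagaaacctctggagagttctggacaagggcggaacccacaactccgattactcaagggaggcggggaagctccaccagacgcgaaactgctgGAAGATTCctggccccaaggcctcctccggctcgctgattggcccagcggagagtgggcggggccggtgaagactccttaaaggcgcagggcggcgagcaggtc
Hsph1, chr5:149636337-149636586, minus strand: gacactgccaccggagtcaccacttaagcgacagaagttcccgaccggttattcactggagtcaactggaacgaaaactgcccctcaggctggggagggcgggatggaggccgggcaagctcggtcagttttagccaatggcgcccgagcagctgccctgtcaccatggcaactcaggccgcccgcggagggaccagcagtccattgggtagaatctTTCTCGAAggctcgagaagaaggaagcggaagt
Hspb1, chr5:135887669-135887918, plus strand: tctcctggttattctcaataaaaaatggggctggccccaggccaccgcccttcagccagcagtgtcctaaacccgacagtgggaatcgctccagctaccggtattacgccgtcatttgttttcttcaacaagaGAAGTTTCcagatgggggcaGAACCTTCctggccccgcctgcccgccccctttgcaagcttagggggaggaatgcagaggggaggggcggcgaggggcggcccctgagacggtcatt
Bag3, chr7:128523333-128523582, plus strand: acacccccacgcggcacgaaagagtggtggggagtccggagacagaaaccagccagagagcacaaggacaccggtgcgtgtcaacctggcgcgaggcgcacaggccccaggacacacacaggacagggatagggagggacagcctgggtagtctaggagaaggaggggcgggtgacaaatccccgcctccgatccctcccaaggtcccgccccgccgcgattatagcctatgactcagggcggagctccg
Hspe1, 30 bases at chr1:55088053-55088082, plus strand: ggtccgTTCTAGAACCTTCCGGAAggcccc
The match in Hspa1a begins 104 bases before the start, that in Hsph1 33 bases, and those in Hspb1 117 and 97 bases before it. Hspa1b, for which the array gave no value, has a window that differs from that of Hspa1a in 3 of 250 bases and holds the same match. Hspe1 and Hspd1 lie head to head, and the 30 bases shown, with 3 overlapping matches, fall in the windows of both. In all, 6 of the 8 members with a window held the 2-unit letters in at least 1 window, against 14.5% of 27025 genes in the RefSeq table, and 2 of 8 held the 3-unit letters, against 0.514% of genes. The 2 are Hspe1 and Hspd1, which share the same bases, so 1 stretch is counted for both. Hspa1a and Hspa1b add near-identical windows to the 6, so these counts are not of separate sites. The windows of Dnajb1 and Bag3 held no match, which says only that these letters are not in those bases.

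In GF housing, 8 of the 9 heat-shock genes measured read at least 2-fold lower on the KO array than on the WT array, by 2.03-fold to 6.12-fold. With quantile or cyclic loess scaling 6 of the 9 did, Hspd1 and Hspe1 no longer passing. In SPF housing none of the 9 reached 2-fold between KO and WT, and the range was -0.34 to 0.39 on the log2 scale. Both GF arrays read lower than the SPF array of the same genotype: 8 of 9 genes were at least 2-fold lower in KO cells and 6 of 9 in WT cells. The KO GF array had the lowest value of the 4 arrays for every one of the 12 probes, which stand for 9 genes. How many of all genes have their lowest value there was not counted. Bright genes as a whole lay lower on that array: the brightest 25% had a median of -0.45 against WT GF and -0.31 against KO SPF. The remaining gene, Hsf1 itself, stayed within 2-fold in each of these comparisons.

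**Figure D1:**
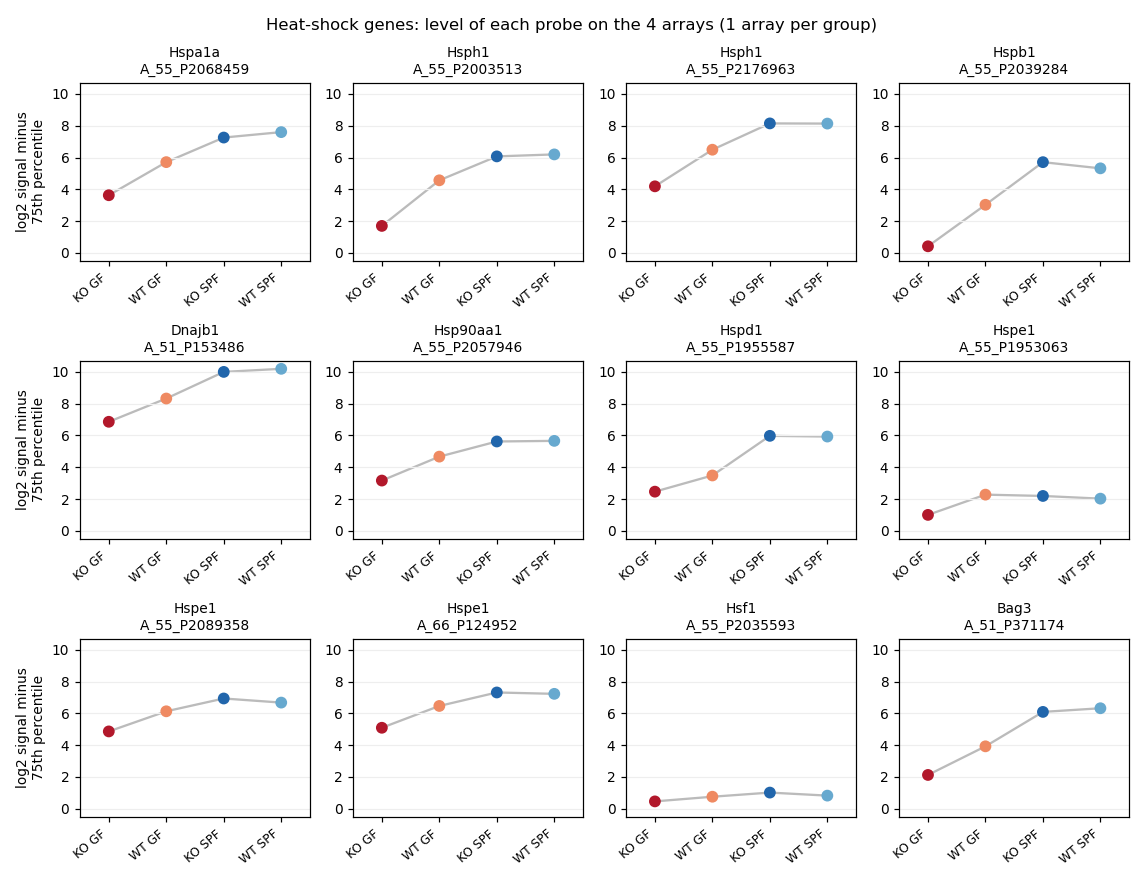
Level of each of the 12 probes (log2 signal minus the array's 75th percentile) on the KO GF, WT GF, KO SPF and WT SPF arrays, 1 point per array. The KO GF point is the lowest in every panel and the SPF points lie close together; the Hspe1 probe A_55_P1953063 is the panel where WT GF, at 2.28, is the highest.

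The HSP70 machine comes first. Hspa1a (NM_010479), the classic stress-inducible HSP70, read 3.63 in KO GF and 5.71 in WT GF cells, and 7.26 in KO SPF and 7.60 in WT SPF cells. The GF pair is far apart while the SPF pair is close. KO was 4.24-fold lower than WT in GF housing (-2.08) and 1.27-fold lower in SPF housing (-0.34). GF was 12.4-fold lower than SPF in KO cells and 3.70-fold lower in WT cells. Hspa1a and Hspa1b are near-identical copies, and whether the Hspa1a probe also reads Hspa1b was not tested.

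Hsph1 (NM_013559), the HSP110 exchange factor of HSP70, read 4.19 in KO GF and 6.49 in WT GF cells, and 8.15 in KO SPF and 8.14 in WT SPF cells at its brighter probe. Its other probe read 1.70 for KO GF and 4.57 for WT GF, and 6.07 for KO SPF and 6.20 for WT SPF. Both probes gave the same order of housings, with a KO minus WT difference in GF housing of -2.30 at the brighter and -2.87 at the dimmer one. In SPF housing the same differences were 0.01 and -0.12. GF minus SPF was -3.96 in KO cells and -1.64 in WT cells at the brighter probe, and -4.38 and -1.63 at the dimmer one.

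Dnajb1 (NM_018808), the main stress-inducible J-domain partner of HSP70, read 6.86 in KO GF and 8.33 in WT GF cells, and 10.001 in KO SPF and 10.20 in WT SPF cells. It was 2.76-fold lower in KO than in WT in GF housing and 1.14-fold lower in SPF housing. GF was 8.81-fold lower than SPF in KO cells and 3.66-fold lower in WT cells. Bag3 (NM_013863), which links HSP70 to HSPB proteins and to selective autophagy, read 2.13 in KO GF and 3.93 in WT GF cells, and 6.09 in KO SPF and 6.32 in WT SPF cells. KO was 3.49-fold lower than WT in GF housing and 1.17-fold lower in SPF housing. GF minus SPF was -3.97 in KO cells, level with the brighter Hsph1 probe, and -2.40 in WT cells, level with Hspd1.

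Hspb1 (NM_013560), the small heat-shock protein HSP25 of mice, had the widest spread of the members. It read 0.41 in KO GF and 3.03 in WT GF cells, and 5.71 in KO SPF and 5.32 in WT SPF cells. KO was 6.12-fold lower than WT in GF housing and 1.31-fold higher in SPF housing. GF was 39.3-fold lower than SPF in KO cells and 4.90-fold lower in WT cells. Hsp90aa1 (NM_010480) read 3.16 in KO GF and 4.67 in WT GF cells, and 5.62 in KO SPF and 5.66 in WT SPF cells. Its GF difference between KO and WT was -1.51, against -0.04 in SPF housing, and GF minus SPF was -2.46 in KO cells and -0.99, just short of 2-fold, in WT cells.

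The mitochondrial pair did not move by equal amounts. Hspd1 (NM_010477), HSP60, read 2.46 in KO GF and 3.48 in WT GF cells, and 5.98 in KO SPF and 5.93 in WT SPF cells. Hspe1 (NM_008303), HSP10, read 5.10 in KO GF and 6.47 in WT GF cells, and 7.32 in KO SPF and 7.23 in WT SPF cells at its brightest probe. GF minus SPF in WT cells was -2.45 for Hspd1 and -0.76 for Hspe1, the genes that share the upstream stretch shown above. KO minus WT in GF housing was -1.02 for Hspd1, the member closest to the 2-fold line, and -1.37 for Hspe1. The other Hspe1 probes gave -1.27 each for that difference, but in WT cells GF minus SPF ran from -0.76 and -0.55 to 0.25 over the 3 probes, so the direction of Hspe1 there depends on the probe.

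Hsf1 (NM_008296) read 0.46 in KO GF and 0.76 in WT GF cells, and 1.02 in KO SPF and 0.83 in WT SPF cells. Its differences ran from -0.55 (GF minus SPF, KO cells) to 0.19 (KO minus WT, SPF housing), all under 2-fold. These values are transcript levels of the factor and carry nothing on its trimer formation or binding.

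The share of all genes past 2-fold sets these counts in context. For KO against WT in GF housing, 8.8% of 15697 named genes above background were at least 2-fold higher and 7.77% at least 2-fold lower, beside 0 and 8 of the 9 members. The members' median was -1.51, against -0.20 over all genes. Of the members, 8 were among the brightest 25% of genes by mean level, which as a whole lay lower on the KO GF array: their median was -0.45, with 8.36% at least 2-fold lower and 1.5% higher. Among those 3925 genes Hspb1 had the lowest difference, Hsph1 ranked 2, Hspa1a ranked 4 and Bag3 ranked 9 from the lowest, and Hspd1 ranked 298. Over all 15697 genes Hspb1 ranked 81, Hsph1 131, Hspa1a 166, Bag3 220 and Hspd1 1152. The brightest 25% were set by the mean over all 4 arrays, so the high SPF values of the members help place them there. How many genes pass 2-fold on each side depends on the scaling: centring the arrays on their medians put 903 genes at least 2-fold higher and 2506 lower. In the authors' deposited table, 2291 genes were higher and 571 lower, beside 1382 and 1220 on the scale used here. Every measured member was below 0 in all of these scalings, with Hsf1 as near to it as -0.008. Most of the brightest 25% were below 0 as well: their upper quartile was -0.07 on the scale used here.

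For KO against WT in SPF housing 5.61% of 14877 genes read 2-fold or more above WT and 6.61% as far below, with no member in either. The members' median of 0.01 lay beside -0.06 over all genes, and its sign turned under other scalings (-0.12 with quantile scaling). The difference between the 2 genotype differences (GF minus SPF) was at least 2-fold lower for 8 of 9 members, with a median of -1.47, against 12.5% lower and 11.0% higher of 15029 genes, whose median was -0.14. Of the brightest 25% of genes, which hold 8 of the members, 14.8% were lower and 2.1% higher, with a median of -0.40. With 1 array per group this difference between differences has no error of its own and was not tested, and only 5 members passed 2-fold with quantile or cyclic loess scaling.

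For GF against SPF, the members' counts of 8 lower in KO cells and 6 lower in WT cells stand beside 15.4% of 15572 genes and 9.44% of 15656 genes at least 2-fold lower, and 21.6% and 17.5% higher. The members' median was -3.51 in KO cells and -1.87 in WT cells, against 0.05 and 0.13 over all genes. Of the brightest 25% of genes 20.9% were lower and 6.42% higher in KO cells, with a median of -0.31. In WT cells 5.47% of them were lower and 8.23% higher, with a median of 0.02. Among all genes measured in KO cells Hspb1 ranked 15 and Bag3 57 from the lowest; in WT cells Hspd1 ranked 242 and Bag3 261. The comparisons that involve the KO GF array share its signal, so the GF genotype difference and the KO housing difference are not separate evidence.

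**Figure D2:**
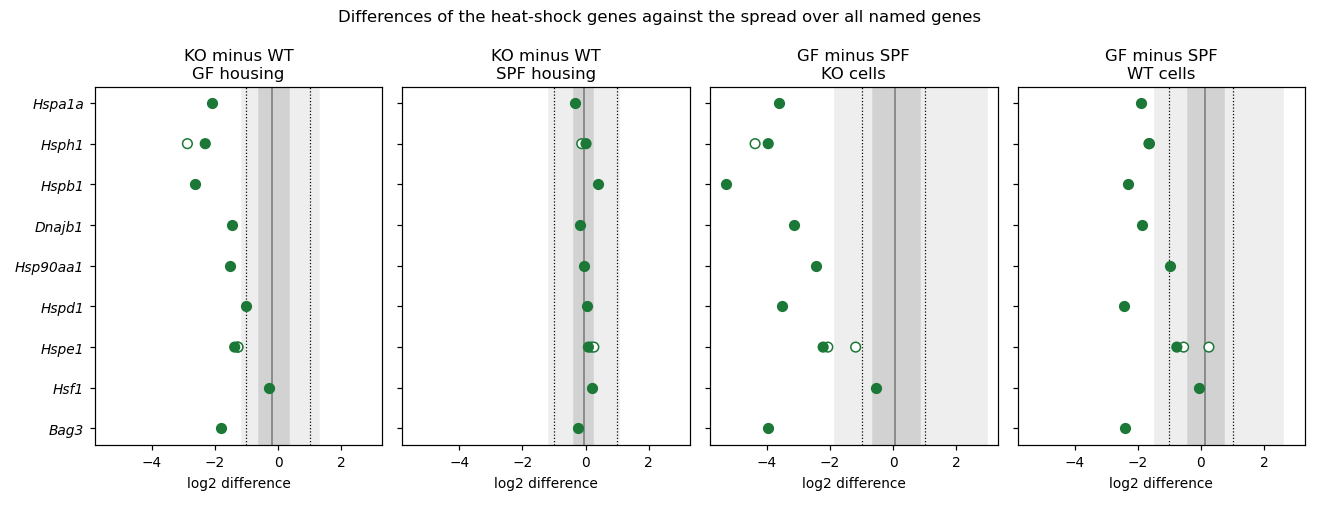
Log2 differences of the 9 measured genes in the 4 comparisons, filled for the probe that represents the gene and open for its other probes; the dark band spans the middle 50% of all named genes and the light band all but the outer 5% on each side, and dotted lines mark 2-fold. In GF housing 8 genes lie at or beyond the 2-fold line on the lower side, and in SPF housing all lie near 0.

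A model over all 4 arrays was fitted for 15029 genes with limma, with genotype and housing as terms. Its single residual degree of freedom is the difference between the genotype differences. limma draws each gene's spread toward one pooled over all genes, here with 10.3 prior degrees of freedom. The p-values thus weigh an effect mostly against the typical size of that difference over all genes, less against the gene's own. With median centring, or only genes above background on all arrays, the pooled spread alone was used. For housing, 8 of the 9 members were lower in GF at an adjusted p below 0.05 (Benjamini-Hochberg over all genes), against 5.2% of genes called lower and 11.4% called higher. All 8 were lower in both genotypes. Hspd1 fell in GF (-2.98 ± 0.42 on the log2 scale, SE, limma adjusted p = 0.000425), as did Bag3 (-3.18 ± 0.45, limma adjusted p = 0.000467) and Hspb1 (-3.79 ± 0.59, limma adjusted p = 0.000911). Hsph1, Hspa1a and Dnajb1 were at -2.80, -2.76 and -2.50 with limma adjusted p of 0.00304, 0.00162 and 0.00186. Hsp90aa1 (-1.73, limma adjusted p = 0.0208) and Hspe1 (-1.49, limma adjusted p = 0.0403) passed less widely, and both lost the call under several of the alternatives. Hsf1 was -0.31 ± 0.39 with limma adjusted p of 0.644. Without the KO GF array the housing value is that of WT cells alone, a median of -1.87 over the members with no test. The effect runs with slide, scan year, design file and labelled sex.

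For genotype averaged over both housings, limma called no member at an adjusted p below 0.05, against 0.0665% of genes called higher and 0.0665% called lower. Hspa1a had the smallest adjusted value among them (-1.21 ± 0.47, limma adjusted p = 0.640). Before adjustment Hspa1a, Bag3 and Hsph1 were under 0.05, as were 954 of all genes. The average joins a GF difference that was large for 8 members with an SPF difference near 0.

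**Figure D3:**
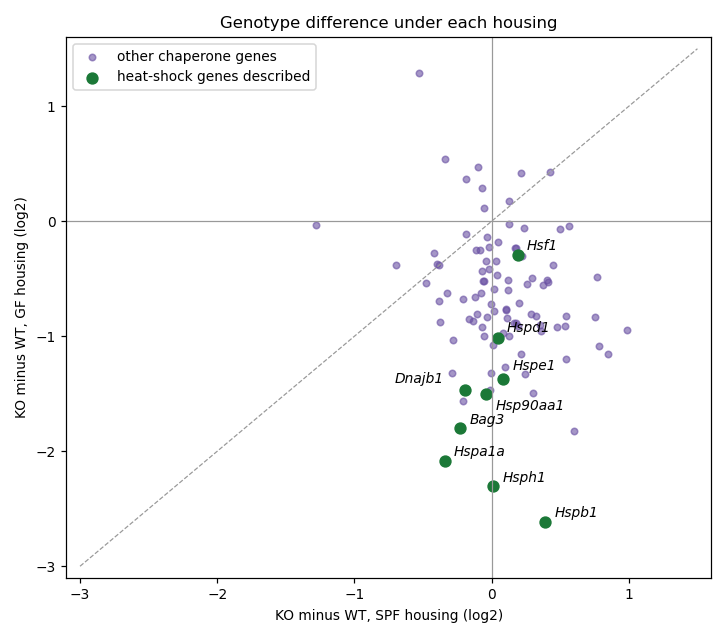
KO minus WT in GF housing (vertical axis, log2) against KO minus WT in SPF housing (horizontal axis, log2) for the 9 heat-shock genes (large points) and other chaperone genes (small points); the dashed line marks equal values. Hspb1 lies lowest at -2.61 on the vertical axis and 0.39 on the horizontal one, and Hsf1 lies highest of the named genes.

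Chaperone genes other than the members were taken from lists by family, 92 of 97 genes being measured in the GF pair. In GF housing 15 of them were at least 2-fold lower and 1 higher in KO than in WT, with a median of -0.61, and 83 were below 0. In SPF housing 1 was at least 2-fold lower and none higher, with a median of 0.06, beside 6.61% and 5.61% of all genes. The lower one was Hspa12b, a distant HSP70 relative, at -1.28, followed by Serpinh1, the collagen chaperone, at -0.70 and Hspb9 at -0.53. Highest in SPF housing were Dnajb2 at 0.99, and Manf and Creld2, both endoplasmic reticulum stress genes, at 0.84 and 0.78. In GF housing Fkbp5, Dnajc5 and Grpel2 were highest among genes above background on both arrays, at 0.54, 0.47 and 0.43. The 15 depend on the scaling: 37 passed when arrays were centred on the median, and 6 to 8 with quantile, cyclic loess, the deposited table or normexp.

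In SPF housing the medians of the families ran from -0.07 to 0.10, apart from the endoplasmic reticulum group, and none but Hspa12b passed 2-fold. The GF counts by family stand beside 7.77% of all genes lower (median -0.20) and 8.36% of the brightest 25% (median -0.45). Several of the small family counts and medians lie near these values. By family, 3 of 9 other cytosolic HSP70, HSP110 and HSP90 genes were at least 2-fold lower in KO than in WT in GF housing (median -0.83). Hspa8, the constitutive HSP70, read 4.88 in KO GF and 6.14 in WT GF cells, and 8.05 in KO SPF and 7.95 in WT SPF cells. Of 13 other J-domain genes 3 were at least 2-fold lower (median -0.60): Dnaja4 was at -1.82, against 0.60 in SPF housing, and Dnaja1, an HSP70 partner, at -1.56, against -0.21. Among 20 other cochaperones 3 were lower (median -0.64); Ahsa1, which stimulates the HSP90 ATPase, was at -1.32, against -0.01 in SPF housing. The 8 subunits of TRiC, the cytosolic folding chamber, had a median of -0.83 and none passed 2-fold. Of 10 other mitochondrial chaperones and proteases none passed (median -0.23): Hspa9, the HSP70 of mitochondria, read 2.60 in KO GF and 2.67 in WT GF cells, and 2.50 in KO SPF and 2.0001 in WT SPF cells. The 6 other small heat-shock protein genes measured had a median of 0.05, with 1 at least 2-fold higher and none lower. That was Hspb9, whose spot stood out from background in KO GF but not in WT GF cells, so no size is given. The lens chaperone gene Cryab was at -0.03, against 0.12 in SPF housing.

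Chaperones of the endoplasmic reticulum, where secreted proteins fold, were at least 2-fold lower in 4 of 17 genes (median -0.82). The shares over all genes and over bright genes given for the families apply here too. In SPF housing their median was 0.41, with none past 2-fold. Hspa5, the HSP70 of that compartment, read 4.91 in KO GF and 5.43 in WT GF cells, and 6.00 in KO SPF and 5.60 in WT SPF cells. Of 20 other genes known to be induced by HSF1, some of which are also counted in the families above, 8 were at least 2-fold lower in GF housing (median -0.92). Zfand2a, a proteasome-associated stress gene, read 1.27 in KO GF and 2.76 in WT GF cells, and 3.34 in KO SPF and 3.04 in WT SPF cells. Among 5 other heat-shock factors and regulators measured 1 was lower; Hsf2, another heat-shock factor, was at -0.43 and Hsf4 at -0.04, against -0.07 and 0.56 in SPF housing.

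**Figure D4:**
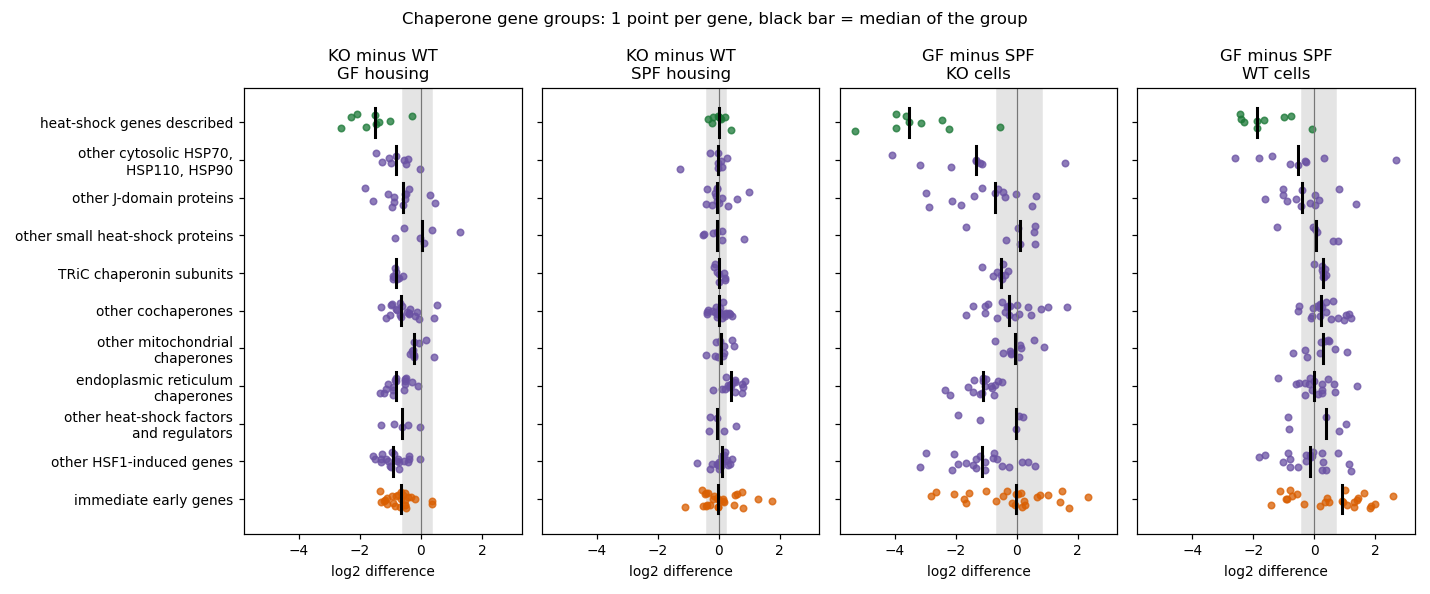
Log2 differences in the 4 comparisons for the genes of each chaperone group, 1 point per gene, with a black bar at the median of the group and a grey band over the middle 50% of all named genes. In GF housing the bar of the heat-shock genes described is at -1.51, and those of the other groups lie between -0.92 and 0.05.

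GF against SPF gave a wider spread between families. In KO cells 33 of the 92 other chaperone genes were at least 2-fold lower and 3 higher (median -0.61), and in WT cells 8 were lower and 8 higher (median 0.10). Over all genes 15.4% were lower and 21.6% higher in KO cells, and 9.44% and 17.5% in WT cells. The WT counts do not exceed those shares. Hspa1l, a testis-type HSP70 gene beside Hspa1a and Hspa1b, was lowest of the other chaperone genes in both genotypes, at -4.07 in KO cells and -2.61 in WT cells. Hspa8 followed at -3.17 and -1.81, and Dnaja1 at -2.97 and -1.62. Other genes went the opposite way: Fkbp5, an HSP90 cochaperone of steroid receptors, was at 1.66 in KO cells, followed by Hspa12b at 1.58 and Stub1, the CHIP ubiquitin ligase, at 1.03. In WT cells Manf was at 1.39, Dnajc8 at 1.36 and Fkbp4, another HSP90 cochaperone, at 1.21. Hspa12a, also higher there by more than 2-fold, stood out from background in WT GF but not in WT SPF cells, so no size is given. Endoplasmic reticulum chaperones had a median of -1.09 in KO cells, with 10 of 17 at least 2-fold lower, and of -0.02 in WT cells, with 1 lower and 1 higher.

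Genes with a pattern over the 4 arrays most like the members were found by the distance between centred levels, over 12875 genes above background on all arrays. The nearest to the members' median pattern were Dnaja1 (distance 0.236 on the log2 scale), Sema7a (0.319), 1700001G17Rik (0.324), Isg15 (0.351) and Hspa8 (0.369). Among the members themselves Dnajb1 lay closest to that median (0.196) and Hsf1 farthest (2.38).

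Immediate early genes are the fast transcription factors and regulators switched on by many stimuli. In WT cells 11 of 25 were at least 2-fold higher in GF than in SPF and 2 lower (median 0.91), with Egr1 at 2.57, Fosb at 1.97, Jun at -1.14 and Nr4a3 at -1.42. In KO cells 5 were higher and 6 lower (median -0.02), with Egr1 at 2.33, Egr3 at 1.72, Maff at -2.64 and Nr4a3 at -2.80. Over all genes 17.5% were higher and 9.44% lower in WT cells, and 21.6% and 15.4% in KO cells. The count higher in KO cells does not exceed that share. For KO against WT in GF housing 6 of 25 were lower and none higher (median -0.65), and 23 were below 0, the direction of the members. Over all genes 7.77% were lower and 8.8% higher there. In SPF housing 1 was lower and 2 higher (median -0.03), beside 6.61% and 5.61% of all genes. In GF housing Klf2 was at -1.33 and Maff at -1.30, with Nr4a3 and Fosl1 highest at 0.36 each. In SPF housing Klf2 was at -1.11 and Klf4 at -0.56, with Nr4a3 at 1.74 and Nr4a2 at 1.29.

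Markers of other cell types moved with the arrays too. Over all genes 7.77% were at least 2-fold lower and 8.8% higher for KO against WT in GF housing, and 6.61% and 5.61% in SPF housing. For GF against SPF 15.4% were lower and 21.6% higher in KO cells, and 9.44% and 17.5% in WT cells. The summed level of the 9 members, in multiples of the array's 75th percentile and carried mostly by Dnajb1, was 203 in KO GF and 614 in WT GF cells, and 1856 in KO SPF and 2032 in WT SPF cells. For 12 DC markers that sum was 331 and 553 on the KO and WT GF arrays, and 722 and 716 on the KO and WT SPF arrays. The DC markers' median was -0.75 for KO minus WT in GF housing, with 3 of 11 at least 2-fold lower, against 0.09 in SPF housing, with none lower and 2 of 12 higher. For GF minus SPF it was -1.16 in KO cells, with 8 of 12 lower, and -0.16 in WT cells, with 2 of 12 lower and 1 higher. For 12 epithelial markers the sum was 335 and 199 on the KO and WT GF arrays against 4.27 and 3.23 on the KO and WT SPF arrays, and all 12 were at least 2-fold higher in GF in both genotypes. In the GF pair 5 of the 12 epithelial markers were at least 2-fold higher in KO than in WT and none lower, and in the SPF pair 3 of the 10 measured were higher and 1 lower.

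The shares over all genes given for the DC and epithelial counts hold for the next counts too. Macrophage and monocyte markers (10) summed to 257 and 485 on the KO and WT GF arrays and 510 and 568 on the KO and WT SPF arrays. Their median for KO minus WT was -0.91 in GF housing, with 4 at least 2-fold lower and 0 higher. In SPF housing it was -0.38, with 0 lower and 1 higher. B cell and plasma cell markers (8) summed to 4.06 and 3.99 on the KO and WT GF arrays and 85.0 and 20.2 on the KO and WT SPF arrays. T cell markers (7) summed to 25.2 and 38.4 on the KO and WT GF arrays and 12.4 and 11.7 on the KO and WT SPF arrays, a sum that is mostly Cd4, whose GF minus SPF difference was 1.08 in KO and 1.88 in WT cells. Cd3d, a subunit of the T cell receptor complex, stood out from background in both SPF samples and in neither GF sample. Neutrophil markers (5) summed to 259 and 193 on the KO and WT GF arrays and 340 and 317 on the KO and WT SPF arrays, nearly all of it Csf3r, at -0.39 in KO and -0.71 in WT cells for GF minus SPF. Of 4 neutrophil markers measured in KO cells and 4 in WT cells, 3 in each were at least 2-fold lower in GF than in SPF, among them S100a9, at -3.27 in WT cells. The sums of endothelial, fibroblast and mast cell markers lay between 2.72 and 25.7 on every array. For KO minus WT in GF housing 3 of 6 endothelial markers were at least 2-fold lower and 0 higher (median -0.85). Of 8 fibroblast and smooth muscle markers 0 passed 2-fold either way (median -0.09), and of 2 mast cell markers measured 1 was higher. Fewer cells of a type and less RNA per cell cannot be told apart in such bulk samples, and the part that cell makeup has in the heat-shock values was not tested.

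**Figure D5:**
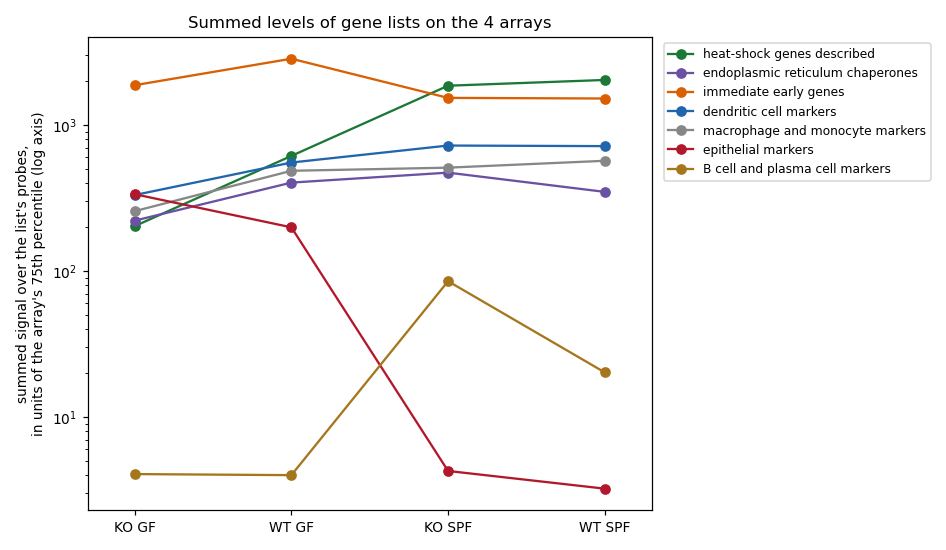
Summed signal of each list's probes in multiples of the array's 75th percentile (vertical log axis) on the KO GF, WT GF, KO SPF and WT SPF arrays; the height of one line is not comparable with another's, since lists differ in probes. The heat-shock line runs from 203 on the KO GF array through 614 on the WT GF array to 1856 and 2032 on the KO and WT SPF arrays, while the epithelial line is at 335 and 199 on the KO and WT GF arrays and at 4.27 and 3.23 on the KO and WT SPF arrays.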

How the data were processed

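RNA of colonic lamina propria DCs was amplified as cDNA, labelled with Cy3 and hybridised to 4 one-colour Agilent arrays, per the labels' protocols. The deposited scanner files give spot intensity, already background-subtracted by Agilent Feature Extraction 10.10.1.1 (protocol GE1_1010_Sep10), per the file headers. The deposited value table holds intensity on a scale the authors do not state; its columns were 7.08 to 8.30 times the scanner signal, with medians of 216.3 to 331.4. Control and outlier-flagged spots were left out, and 55597 probes were kept. Levels were log2 of the processed signal minus each array's 75th percentile, and the brightest probe by mean level represents a gene. A gene enters a pair if above background on at least 1 array, and the 4-array model (limma 3.58.1, R 4.3.3) if above background on at least 2. Pairs were described by log2 differences, counts at or past 2-fold and medians. limma was tested on simulated data. Of the chaperone and immediate early lists the text names, among genes above background on both arrays of a pair, the 3 highest and 3 lowest chaperones and the 2 highest and 2 lowest immediate early genes, and the 5 genes nearest in pattern. Hspa5, Hspa9, Ahsa1, Cryab, Hsf2, Hsf4, Hspa12a and, in GF housing, Hspb9 were chosen after their values were seen. The members and lists were chosen with earlier results of these data known. Alternatives were median centring, quantile and cyclic loess scaling, normexp (offset 50) on median signals, since mean signals are not in the files, the deposited table, the mean of probes, other background filters and limma with a trend. Symbols and promoters are from RefSeq.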

Additional observations from a re-analysis of the deposited data

Results flagged for a closer look

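For 7 probes of 5 genes the KO minus WT difference had opposite signs in the 2 housings, which drew a closer look; with 1 array per group none of these differences was tested. The GF difference minus the SPF difference was -3.002 for Hspb1, -2.32 for Hsph1 at its brighter probe, -1.06 for Hspd1 and -0.49 for Hsf1. For Hspe1 it was -1.46, -1.53 and -1.44 at the 3 probes. The last of these, at A_55_P1953063, also had opposite signs for GF minus SPF in KO and WT cells (-1.19 and 0.25), again a difference of -1.44. In each case the SPF difference was small (0.01 to 0.39), so the sign alone says little.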

How the results depend on the processing

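No paired analysis was possible because each group has 1 array, so that replicate numbers pair nothing; the genotype effect averaged over housing already has housing, and with it the slide, as a term. No value reversed under the alternatives run, except in small differences within 2-fold. The members' median for KO minus WT in GF housing was -1.74 centred on the median, -1.28 with quantile scaling, -1.10 with cyclic loess and -1.22 in the deposited table. In SPF housing it was -0.12 with quantile scaling. For GF minus SPF in KO cells it was -3.80 (median centring), -3.08 (quantile), -3.09 (cyclic loess), -3.31 (normexp) and -3.17 (deposited table), and in WT cells -1.74 (quantile) and -1.75 (normexp). The difference between the genotype differences had a median of -1.76, -1.06, -1.02 and -1.10 with median centring, quantile, cyclic loess and the deposited table, and 5 members at least 2-fold lower, not 8, with quantile and cyclic loess. Averaged over housing, the members' genotype median was -0.83, and -0.68 with cyclic loess and -0.73 in the deposited table; leaving out each array gave -1.51 without either SPF array and 0.011 without either GF array. Averaged over genotype, the housing median was -2.76, and -2.90, -2.49, -2.50 and -2.60 with median centring, quantile, cyclic loess and the deposited table; leaving out each array gave -3.51 to -1.87 (-1.87 without the KO GF array, added after seeing the data). In GF housing Hspd1 went under 2-fold with quantile (-0.74), cyclic loess (-0.62), normexp (-0.92) and the deposited table (-0.73), and Hspe1 with quantile (-0.93) and cyclic loess (-0.95), so 6 or 7 members passed there. The limma genotype calls (10 higher, 10 lower) became 36 and 37 with median centring, 52 and 24 with a trend and robust prior, 26 higher with genes above background on all arrays, and 0 and 0 with quantile, cyclic loess, normexp, the deposited table, the mean of probes or no filter, where 721 to 1265 genes had an unadjusted limma p below 0.05. The limma housing calls (1708 higher, 781 lower) became 844 higher with normexp, and 422 lower with cyclic loess, 457 with normexp, 289 in the deposited table, 389 with no filter and 1296 with a trend and robust prior. Hsp90aa1 lost its housing call with quantile, cyclic loess, the deposited table and no filter, and Hspe1 with these, normexp and the mean of probes. With normexp the genes at least 2-fold lower numbered 353 against 1220 for KO against WT in GF housing, and 92 against 983 in SPF housing. The planned normexp on mean signals was not run because the files hold no mean signals.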
